A study of Caenorhabditis elegans with 59 samples.

Results

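The comparison concerned loss of ebax-1 in first-stage (L1) larvae of C. elegans carrying ju699, a null allele isolated independently of tm2321, the allele used elsewhere in the study. 4 small-RNA sequencing (sRNA-seq) libraries were compared, 2 of ebax-1(ju699) larvae (strain CZ9912) and 2 of wild-type larvae (strain N2). The members were the miRNA strands with a mean level of at least 5 in the wild-type libraries, in CPM, that is counts relative to all miRNA counts of a library, plus 1. Of the 310 strands in the count table, 303 had values for these libraries and 215 passed the filter. The 88 others had too few wild-type counts, and 13 of them had 0 counts in all 4 libraries. At the edge of the filter, miR-230* (4.96) and miR-1817 (4.64) were just outside, and miR-1829b* (5.09) and miR-76* (5.12) just inside. An asterisk marks the passenger strand of a hairpin, the strand that is usually discarded when the guide strand is loaded into an Argonaute protein.

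Both groups were whole larvae grown at 20 °C from bleached mothers and hatched without food, so that they were starved and arrested. The age in hours was not given in the sources used here. The mutant is a single strain, and a difference between it and N2 cannot be told apart from other differences between these strains. A comparison was also made with the L1 larvae of the developmental time course, which has 2 libraries of ebax-1(tm2321) and 2 wild-type libraries of its own, collected in the same way. Libraries are whole animals, so fewer cells of a type and less RNA per cell cannot be told apart. ebax-1 lies on chromosome IV at 10286955 to 10293013 of WBcel235. Its mRNA is not in an sRNA-seq table, so the allele itself could not be checked from these counts.

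EBAX-1 is the worm ortholog of ZSWIM8, the substrate receptor of an E3 ubiquitin ligase. In mammals and flies this ligase acts in target-directed miRNA degradation, in which extensive pairing of a miRNA to a trigger RNA leads to loss of its Argonaute protein and then of the miRNA. A substrate of the pathway is expected to accumulate when the ligase is missing, whereas its passenger strand, made from the same hairpin but seldom loaded into Argonaute, is expected to change little. In C. elegans the miR-35 family, embryonic miRNAs with a shared seed that are redundantly required for viability, is normally cleared around hatching.

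The 4 libraries held 2433129 to 3076485 miRNA counts, so that 5 CPM was 12.2 counts in the smallest library. The 10 most abundant wild-type strands, led by miR-52, miR-58 and miR-56, made up 65.6% and 67.5% of the counts in the wild-type libraries and 58.4% and 58.7% in the mutant libraries, and none of these 10 passed the test. Markers of muscle (miR-1), intestine (miR-60-3p), glia (miR-228) and neurons (miR-124) were all present, at between 4794 and 20107 CPM in each library. The wild-type libraries differed from each other more than the mutant libraries did. Of 124 strands with at least 50 CPM in wild type, 27 were over 1.5 times higher in wild-type replicate 1 than in replicate 2, 14 of them passenger strands, and 1 was lower by that factor. In the mutant the corresponding counts were 7 and 2. Members of the miR-35 family were among the 27, and their fold changes are also given without each wild-type library.

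10 of the 215 strands (4.65%) were higher in ebax-1(ju699) larvae and 0 were lower, at an adjusted p under 0.01 (edgeR quasi-likelihood test with TMM scaling, Benjamini-Hochberg adjustment over the 215 strands). They were miR-35, miR-37, miR-38, miR-39, miR-40 and miR-42 of the miR-35 family, miR-64 and miR-65, miR-253 and miR-795. At an unadjusted p under 0.05, 25 strands were higher and 8 lower, and DESeq2 called 16 higher and 2 lower (miR-70 and miR-83*). The median log2 fold change over all strands tested was -0.0042. Increases reached 27.5-fold (miR-38), and no called strand rose by less than 2.24-fold (miR-64). With counts scaled to the library totals instead of by TMM, the median moved to -0.31 and 2 strands, miR-42 and miR-65, were called, with adjusted p of 0.0103 to 0.0157 for the other 8.

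**Figure D1:**
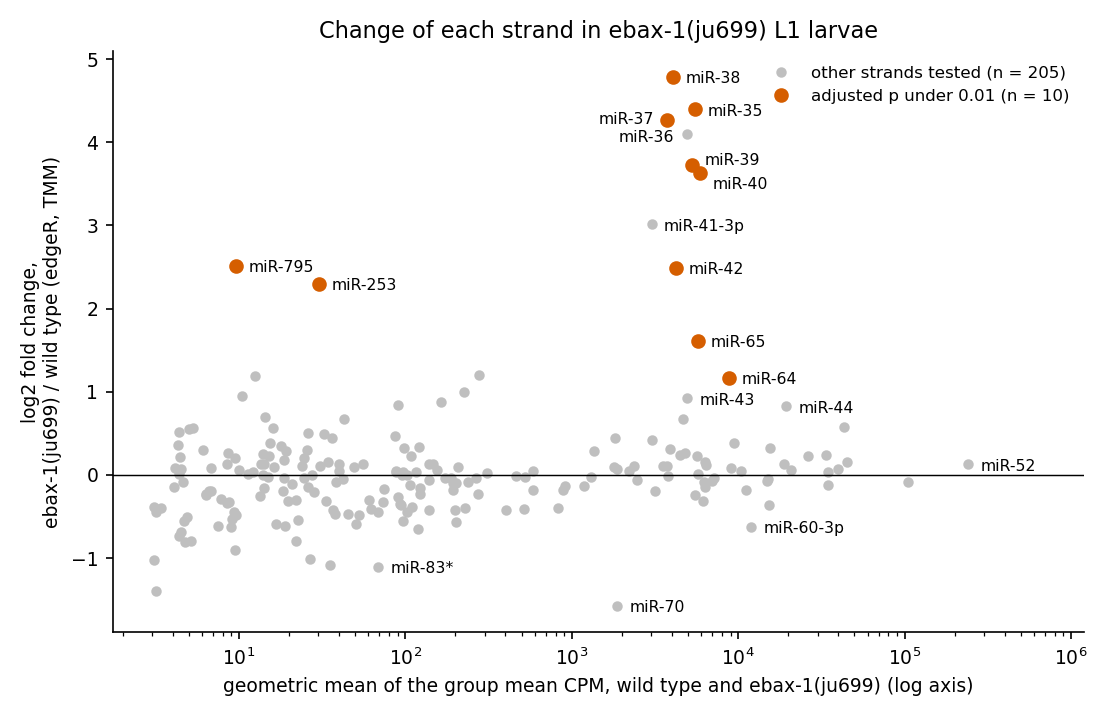
Log2 fold change of each of the 215 strands in ebax-1(ju699) L1 larvae (vertical axis) against the geometric mean of its group mean CPM (horizontal axis, log scale). Orange points are the 10 strands past an adjusted p of 0.01. The miR-35 family stands at the top, between 2.49 (miR-42) and 4.78 (miR-38), and miR-70 is the lowest point at -1.58.

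The largest change was that of the miR-35 family. miR-35 had 1985 and 713 CPM in the wild-type libraries and 24078 and 21313 CPM in the mutant libraries. miR-38 had 1269 and 469 CPM in wild type and 20459 and 17835 CPM in the mutant. miR-42, the only member encoded elsewhere, had 2175 and 1824 CPM in wild type and 9024 and 9150 CPM in the mutant. For all 8 members both mutant libraries were above both wild-type libraries after TMM scaling, which was the case for 24.2% of all strands tested. The log2 fold change was 4.40 ± 0.51 (SE, 95% interval 3.09 to 5.71, adjusted p = 0.0086) for miR-35, a 21.05-fold increase. It was 4.78 ± 0.50 (adjusted p = 0.0071) for miR-38 and 2.49 ± 0.13 (adjusted p = 0.0016) for miR-42, a 5.61-fold increase. miR-37 rose 19.3-fold, miR-39 13.3-fold and miR-40 12.4-fold.

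miR-36 and miR-41-3p, the remaining members, had increases of the same order but did not pass 0.01. miR-36 had 1972 and 692 CPM in wild type and 20582 and 15942 CPM in the mutant, a 17.2-fold increase (95% interval of the log2 fold change 2.75 to 5.45, adjusted p = 0.0113). miR-41-3p had 1692 and 683 CPM in wild type and 7539 and 7817 CPM in the mutant, a log2 fold change of 3.01 ± 0.42 with an adjusted p of 0.0148. The groups were apart for both. Over the family, 6 of 8 members were called, none was lower, and the median log2 fold change was 3.92. Among all strands tested, 4.65% were called higher, 0% lower, and the median was -0.0042.

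Members of the family differed in level in both genotypes, and by group means the spread was slightly narrower in wild type. The wild-type libraries disagreed on this. Wild-type replicate 1 alone ran from 1269 CPM (miR-38) to 2452 CPM (miR-40), relatively narrower than either mutant library. Wild-type replicate 2 alone ran from 469 CPM (miR-38) to 1824 CPM (miR-42). That is relatively wider than mutant replicate 1, from 7539 CPM (miR-41-3p) to 24078 CPM (miR-35), or mutant replicate 2, from 7817 to 21313 CPM. Group means ran from 869 CPM (miR-38) to 1999 CPM (miR-42) in wild-type larvae, a 2.30-fold range, and from 7678 CPM (miR-41-3p) to 22695 CPM (miR-35) in mutant larvae, a 2.96-fold range. The order changed between genotypes. miR-38 was the lowest member in wild type and the second highest in the mutant, and miR-42 was the highest in wild type and the second lowest in the mutant. In wild type the order rests on means whose libraries overlapped for most neighbours, whereas in the mutant both libraries of miR-41-3p and miR-42 were below both libraries of every other member.

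The wild-type libraries disagreed on the starting level of the family. Wild-type replicate 1 was 1.19 to 2.85 times higher in CPM than replicate 2, with the smallest ratio for miR-42, while the mutant libraries were within 0.964 to 1.29 of each other. The log2 fold change of miR-35 was 3.85 without wild-type replicate 2 and 5.24 without wild-type replicate 1, and that of miR-38 was 4.25 and 5.597. In the same order it was 3.54 and 4.97 for miR-36, 3.72 and 5.12 for miR-37, and 3.31 and 4.300 for miR-39. It was 3.26 and 4.11 for miR-40, 2.52 and 3.74 for miR-41-3p, and 2.398 and 2.57 for miR-42, so that miR-42 alone moved little. All 8 members stayed higher in the mutant with any single library left out. A group left with 1 library was assumed to vary like the other. Fits without a wild-type library therefore do not include the disagreement between the wild-type libraries. The part of other differences between the wild-type libraries in the spread of these fold changes was not tested.

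**Figure D2:**
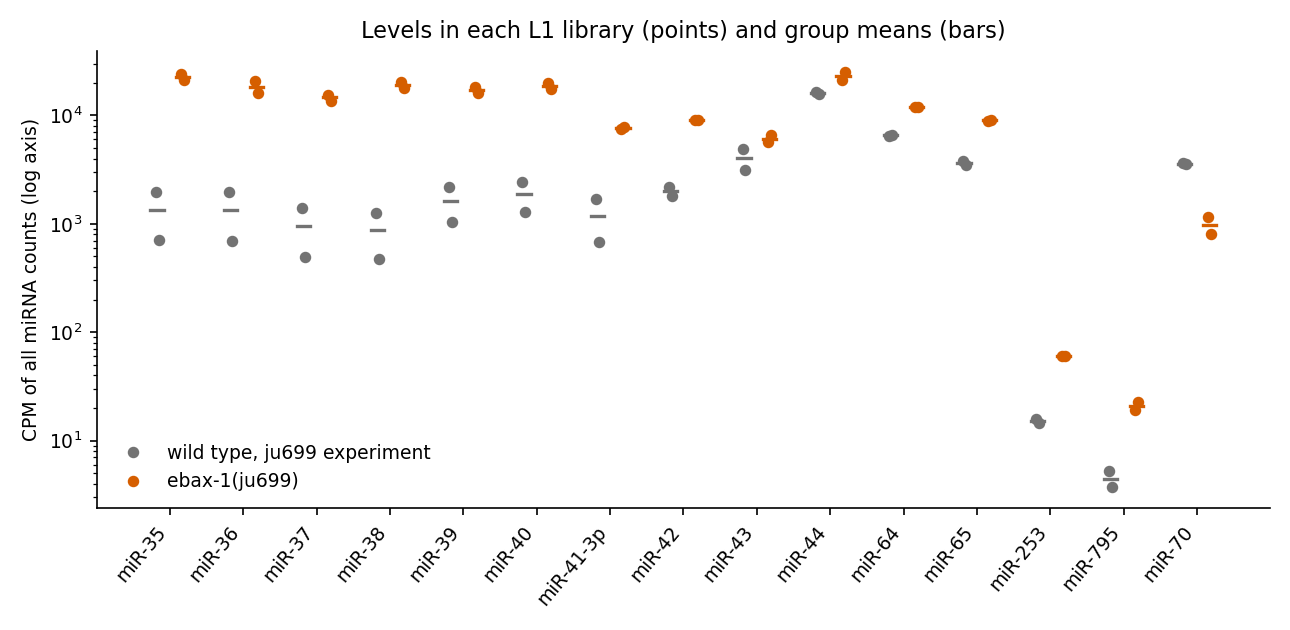
CPM of 15 strands (log axis) in the 2 wild-type (grey) and 2 ebax-1(ju699) (orange) L1 libraries. Points are libraries and short bars are group means. For miR-35 through miR-42 the mutant libraries lie at 7539 CPM or more and the wild-type libraries at 2452 CPM or less, and miR-70 is the one strand plotted that is lower in the mutant.

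The hairpins of the family lie in groups on chromosome II of WBcel235. mir-35 to mir-41 occupy 797 bases (11537608 to 11538404, plus strand), within an intron of Y62F5A.9 on the opposite strand, and are made as one primary transcript. mir-42, mir-43 and mir-44 occupy 308 bases (11889811 to 11890118, plus strand) and form another. All 7 guide strands of the mir-35–41 transcript had log2 fold changes between 3.01 and 4.78. On the mir-42–44 transcript the values ran from 0.82 to 2.49, so that guides made together from this precursor had unequal changes. miR-43, which carries the seed of miR-2 rather than that of miR-35, had 4860 and 3163 CPM in wild type and 5668 and 6579 CPM in the mutant. Its log2 fold change was 0.92 ± 0.21 with an adjusted p of 0.075. It was called with DESeq2, without wild-type replicate 1 (log2 fold change 1.204) and without mutant replicate 1 (1.03), but not without either of the other libraries. miR-44 had 16600 and 15676 CPM in wild type and 20997 and 25392 CPM in the mutant, a log2 fold change of 0.82 ± 0.14 with an adjusted p of 0.028, and was called with DESeq2 and with any single library other than mutant replicate 2 left out. miR-44 and miR-45 have the same sequence and share an entry, so part of this count came from a hairpin outside the transcript. Of the other members of the miR-2 family, miR-2 itself had a log2 fold change of -0.12 (adjusted p = 0.63), miR-250 one of 0.44 (adjusted p = 0.16) and miR-797 one of 0.09 (adjusted p = 0.94). In the edgeR fit of all 4 libraries none of 4 members of this family and none of 3 members of the miR-44 family (miR-44, miR-61 and miR-247) passed, with medians of 0.27 and 0.31.

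In the miR-64 family, 2 of 5 members rose, against 4.65% of all strands tested. miR-65 had 3766 and 3490 CPM in wild type and 8833 and 9149 CPM in the mutant, and miR-64 had 6501 and 6555 CPM in wild type and 11928 and 11895 CPM in the mutant. The replicates of each group were close for both, and the groups were far apart. The increases were 3.05-fold for miR-65 (log2 fold change 1.61 ± 0.11, adjusted p = 0.0038) and 2.24-fold for miR-64 (1.17 ± 0.11, adjusted p = 0.0060). Their hairpins lie with those of miR-66 and miR-229 within 755 bases of chromosome III (2172452 to 2173206). All of these hairpins are in introns of gcn-1, in its orientation. miR-66 had a log2 fold change of 0.39 (95% interval 0.09 to 0.68, adjusted p = 0.17), and miR-229 one of 0.02 (95% interval -0.53 to 0.57, adjusted p = 0.98). miR-63, the remaining member, had one of 0.07 (adjusted p = 0.85). The median of the family was 0.39, and the intervals of miR-64 and miR-65 lay above those of the other members.

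miR-253 and miR-795 were the called strands of low abundance. miR-253, whose hairpin lies in an intron of F44E7.5 on chromosome V (5780510 to 5780616, minus strand), had 15.9 and 14.4 CPM in wild type and 60.3 and 60.7 CPM in the mutant. This was a 4.90-fold increase (log2 fold change 2.29 ± 0.22, adjusted p = 0.0060), based on 35 to 175 counts per library. miR-795, a member of the let-7 family by its seed, had 5.20 and 3.70 CPM in wild type, close to the filter, and 19.3 and 22.5 CPM in the mutant. Its increase was 5.70-fold (log2 fold change 2.51 ± 0.29, adjusted p = 0.0086), on 16 and 9 counts in wild type and 47 and 65 in the mutant. Without wild-type replicate 1 miR-795 no longer passed the filter, since replicate 2 alone was below it.

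The list of the 22 miRNAs that the study called sensitive to EBAX-1 at any stage was drawn from tm2321 libraries, the L1 stage included. 9 of the 22 rose here, none fell, and their median log2 fold change was 1.18. Over all strands tested, 4.65% rose, 0% fell, and the median was -0.0042. The tenth strand called, miR-795, is not on the list. Of the 13 members that did not pass, miR-239b, which is induced by heat, had 309 and 101 CPM in wild type and 421 and 331 CPM in the mutant. The wild-type libraries were far apart, and the log2 fold change was 1.197 ± 0.51 (95% interval -0.12 to 2.51). miR-230, also heat-responsive, had 144 and 125 CPM in wild type and 191 and 211 CPM in the mutant, a log2 fold change of 0.88 ± 0.18 with an adjusted p of 0.064. miR-239b was called without wild-type replicate 1 (log2 fold change 2.14, adjusted p = 8.65e-05) and without mutant replicate 2 (1.36), and DESeq2 called miR-230 (adjusted p = 0.00917). With all 4 libraries in edgeR none of the 5 heat-responsive miRNAs passed (median 0.31). miR-71, required for long-term survival of starved L1 larvae, was at 34555 and 41097 CPM in wild type and 25664 and 37466 CPM in the mutant, with overlapping groups and a log2 fold change of 0.03. miR-235, which keeps blast cells quiescent during starvation, had one of 0.27 (adjusted p = 0.60). None of 7 miRNAs studied in L1 arrest, stress and ageing passed, with a median of 0.24.

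Passenger strands did not share the increases. 79 passenger strands passed the filter, none was called in either direction, 1 was higher and 4 were lower at an unadjusted p under 0.05, and the median log2 fold change was -0.08. miR-35* had 23.1 and 15.6 CPM in wild type and 15.6 and 22.5 CPM in the mutant, so that the groups overlapped while miR-35 itself rose 21.05-fold. The log2 fold change of miR-35* was 0.28 (95% interval -0.52 to 1.09). miR-42* had 31.5 and 10.3 CPM in wild type and 14.4 and 18.7 CPM in the mutant, a log2 fold change of -0.04 (95% interval -1.39 to 1.32). miR-65* had 122 and 89.6 CPM in wild type and 99.7 and 76.3 CPM in the mutant, a log2 fold change of 0.04 (95% interval -0.60 to 0.67). These intervals are wide, since passenger strands had few counts. Over the 7 passenger strands of called guides that passed the filter the median was 0.04, and over 17 passenger strands of the 22 miRNAs it was -0.09. The passenger strands of miR-39, miR-253 and miR-795 had at most 1.63 CPM in any library and were not tested.

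The ratio of guide to passenger strand, which compares the strands within each library, was tested for 77 hairpins with limma on log2 CPM plus 1. It was higher in the mutant for 12 hairpins (15.6%) at an adjusted p under 0.05 and lower for 0. The hairpins were those of miR-35 to miR-38 and miR-40 to miR-43, miR-64, miR-65, miR-235 and miR-244. For miR-36 the log2 ratio was 6.78 and 6.44 in the wild-type libraries and 11.2 and 11.2 in the mutant libraries, a difference of 4.57 ± 0.44, the largest of the 77. For miR-42 it was 6.06 and 7.34 in wild type and 9.20 and 8.86 in the mutant, a difference of 2.33. limma gave all hairpins 1 common variance, hence the shared SE of 0.44. For miR-43 the difference was 1.23 (adjusted p = 0.038), a call that was lost with any single library left out and with a pseudocount of 5 CPM. The result for miR-235 came from the passenger strand in CPM, the scale of this test. miR-235* had 42.6 and 41.5 CPM in wild type and 18.5 and 15.6 CPM in the mutant. The groups overlapped for miR-235 itself, with 4192 and 5469 CPM in wild type and 4701 and 4795 CPM in the mutant. With both strands required to reach 50, which left 30 hairpins and none of the miR-35 family, the hairpin of miR-65 alone passed (1 in all). The count was 6 without wild-type replicate 1, 7 without wild-type replicate 2 or mutant replicate 2 and 9 without mutant replicate 1, and the hairpins of miR-35 to miR-38, miR-40 and miR-41-3p were called in each of these. Passenger strands as a whole took 0.704% and 0.498% of the wild-type libraries and 0.479% and 0.382% of the mutant libraries, with the highest share in wild-type replicate 1.

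**Figure D3:**
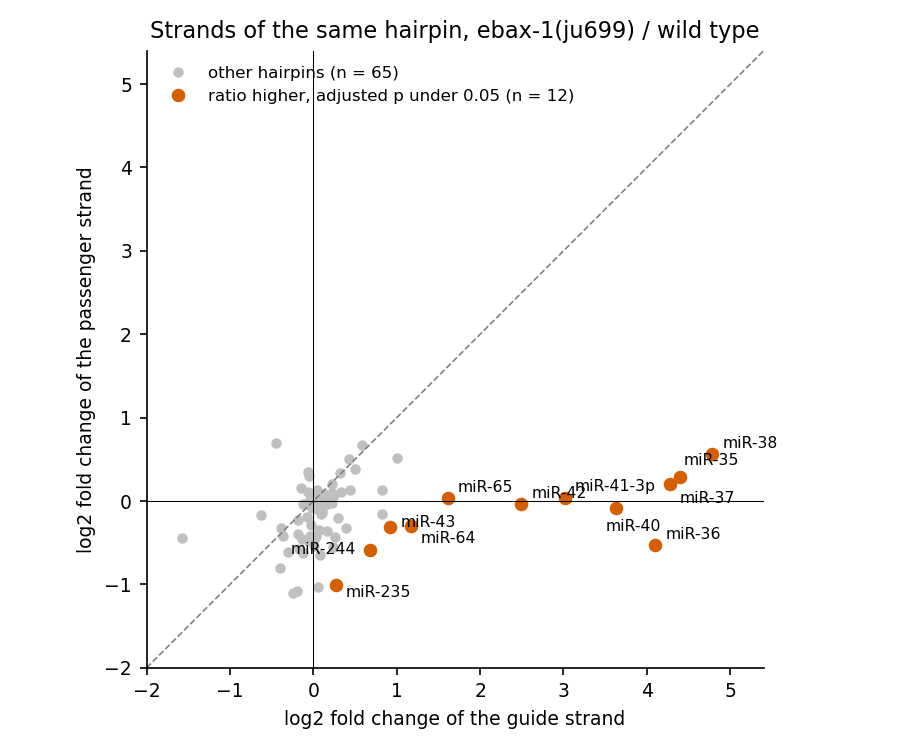
Log2 fold change of the guide strand (horizontal axis) and of the passenger strand (vertical axis) of 77 hairpins in ebax-1(ju699) L1 larvae. The dashed line marks equal change, and orange points are the 12 hairpins whose ratio was higher. Guides of the miR-35 family reach 4.78 while their passenger strands stay between -0.53 and 0.57.

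No strand was lower at an adjusted p under 0.01. At 0.05, 2 were lower (0.93%), miR-70 and miR-83*, and 14 were higher (6.51%). miR-70, named in the study as enriched in the germline, had 3614 and 3562 CPM in wild type and 1161 and 798 CPM in the mutant. The groups were well apart, and the log2 fold change was -1.58 ± 0.21 (95% interval -2.13 to -1.02, adjusted p = 0.0135). Its hairpin lies in an intron of pmp-5 on chromosome V (6665536 to 6665635, minus strand). miR-70 passed 0.01 with DESeq2 (adjusted p = 4.84e-08) and with any single library left out. Over all alternatives its log2 fold change stayed between -1.87 and -1.34 and its adjusted p between 4.84e-08 and 0.0183. It shares the germline-enriched list with miR-43 and the miR-35 family. Of the 10 on that list, 6 rose and none fell at 0.01, against 4.65% and 0% of all strands tested. Those 6 are the miR-35 family members named above. miR-83*, the passenger strand of the worm counterpart of miR-29, had 119 and 104 CPM in wild type and 46.0 and 38.1 CPM in the mutant, a log2 fold change of -1.11 ± 0.21 (adjusted p = 0.047). Leaving out mutant replicate 2 raised its adjusted p to 0.31.

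Marker miRNAs of single tissues had lower mutant than wild-type CPM in several cases, none of which passed the test. Lower CPM was not particular to them, since the median log2 fold change of all strands was -0.31 with scaling by totals. miR-60-3p, from the intestine, had 17112 and 15742 CPM in wild type and 7821 and 9479 CPM in the mutant, a log2 fold change of -0.62 ± 0.14 (adjusted p = 0.069). miR-1, from muscle, had 18627 and 20107 CPM in wild type and 11845 and 12735 CPM in the mutant, a log2 fold change of -0.36 ± 0.13 (adjusted p = 0.25). After TMM scaling, both wild-type libraries exceeded both mutant libraries for these miRNAs, as they did for 20.5% of all strands. Of 5 neuronal miRNAs tested none passed and the median was -0.39. Among them, miR-124 had 8050 and 6723 CPM in wild type and 4794 and 6005 CPM in the mutant. Its log2 fold change was -0.15 (adjusted p = 0.77), and its groups overlapped after TMM scaling. miR-228, from glia and epithelia, had a log2 fold change of 0.33 (adjusted p = 0.35). The part of tissue proportions in the other results was not tested.

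The most abundant families did not pass. miR-52 alone took 25.2% and 25.6% of the wild-type libraries and 23.8% and 21.4% of the mutant libraries, a log2 fold change of 0.13 after TMM scaling and of -0.17 with scaling by totals. With all 4 libraries in edgeR none of the 6 members of its family (miR-51 to miR-56) was called, with a median of 0.14 and the highest value for miR-51 (0.58 ± 0.13, adjusted p = 0.069), which was called without wild-type replicate 2. miR-58, the worm relative of bantam, had a log2 fold change of -0.08, and the 5 members of its family that were tested had a median of 0.08. Among the 88 strands below the filter, the highest mean mutant level was 5.19 CPM (miR-230*). miR-1819 had 5 and 4 counts in wild type and 11 and 11 in the mutant, and miR-2209c had 8 and 3 in wild type and 10 and 14 in the mutant. These counts are too few for a fold change.

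The miR-35 family took a larger share of the pool in the mutant than in wild type. The 8 members made up 1.51% and 0.719% of the miRNA counts in the wild-type libraries and 13.5% and 11.9% in the mutant libraries. The 14 other miRNAs on the list of 22 made up 7.55% and 7.73% in wild type and 8.20% and 10.1% in the mutant. The excess of a set was estimated by the approach the study describes, in which strands outside the set serve as the common reference between genotypes and the wild-type amount on that scale is taken off the mutant amount. The excess of the miR-35 family was 10.6% to 12.9% of the mutant pool over the 4 combinations of a wild-type and a mutant library. For all 22 miRNAs it was 13.9% to 14.8%. These ranges are over library combinations that share libraries, so they carry no test.

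The increases were compared with those of ebax-1(tm2321) L1 larvae against their own wild-type libraries, which shared no library with the ju699 comparison. In tm2321, 15 of 207 strands (7.25%) were higher and 2 (0.966%) lower at an adjusted p under 0.01. All 10 strands called with ju699 were tested and called higher with tm2321, and these made up 10 of the 15 called there. miR-35 had 1691 and 1260 CPM in the wild type of the time course and 24944 and 27538 CPM in tm2321. Its log2 fold change was 4.34 ± 0.18 there and 4.40 ± 0.51 with ju699. The difference between the alleles, tested as the interaction of genotype and experiment, was 0.04 (95% interval -1.17 to 1.25). For miR-65 the values were 1.53 and 1.61, a difference of 0.07 (95% interval -0.23 to 0.37). For miR-253 they were 3.12 and 2.29, a difference of -0.83 (95% interval -1.54 to -0.12, adjusted p = 0.25), with 123 and 107 CPM in tm2321 against 60.3 and 60.7 in ju699. The median of the miR-35 family was 4.03 with tm2321 and 3.92 with ju699. These intervals are wide for the guides of the mir-35–41 transcript, whose wild-type libraries differed.

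**Figure D4:**
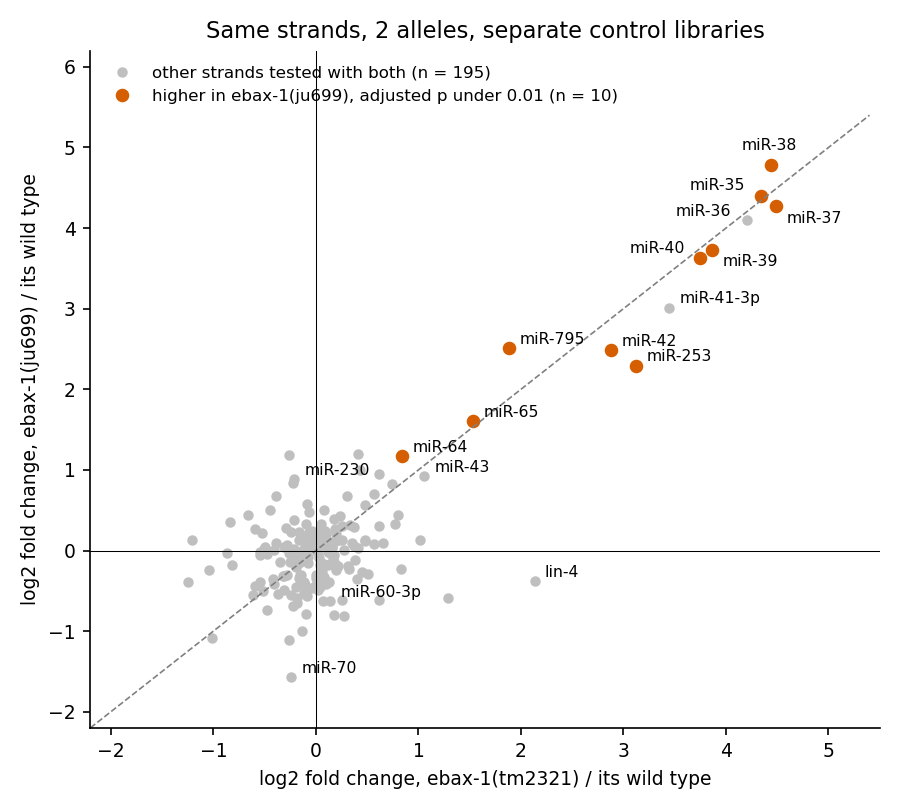
Log2 fold change in ebax-1(ju699) (vertical axis) and in ebax-1(tm2321) L1 larvae (horizontal axis), each against its own wild type, for the 205 strands tested with both. The dashed line marks equal change. The 10 strands called with ju699 (orange) run from miR-64 at 1.17 and 0.84 to miR-38 at 4.78 and 4.43, with miR-253 (2.29 and 3.12) below the line and miR-795 (2.51 and 1.88) above it.

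The test of the difference between alleles called 1 of 212 strands at an adjusted p under 0.05 (0.472%), let-7, and 33 strands had an unadjusted p under 0.05. let-7, which promotes the late larval to adult transition, had 54.9 and 43.2 CPM in the wild type of the ju699 experiment and 38.6 and 19.1 CPM in ju699. In the time course it had 2.89 and 3.05 CPM in wild type and 70.4 and 28.9 CPM in tm2321. Among the 4 groups, only the wild type of the time course stood apart, where let-7 was below the filter. It entered the test through the wild type of the ju699 experiment, in which it was high, so the call is given as a description. With the filter required in each wild type, an alternative chosen after the data were seen, 205 strands were tested, let-7 was not among them, 0 were called and 31 had an unadjusted p under 0.05. The difference of the log2 fold changes was -4.72 (95% interval -6.41 to -3.03, adjusted p = 0.046), and its adjusted p was above 0.05 without ju699 replicate 2 (0.17), without wild-type replicate 1 (0.13) or 2 (0.20) of the time course, with scaling by totals (0.0504) and with the newer fit of edgeR (0.083). miR-241 (-2.89) and miR-70 (-1.34) followed, both with an adjusted p of 0.077. DESeq2 called both among 10 strands, and both were also called with no filter and without wild-type replicate 2 of the ju699 experiment. Of the 10 strands called in ju699, miR-38 was among those differing between alleles without wild-type replicate 1 of that experiment. miR-241, like let-7, was below the filter in the wild type of the time course. For miR-70 the levels with tm2321 were 4749 and 5943 CPM in wild type and 3933 and 3985 CPM in the mutant, a log2 fold change of -0.25.

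Wild-type larvae of both experiments were therefore set against each other. 5 of 212 strands (2.36%) were higher in the wild type of the ju699 experiment and 2 (0.943%) were lower, at an adjusted p under 0.01. Those higher were let-7 (15.8-fold), miR-241 (12.2-fold), miR-48 (7.30-fold), miR-77 (6.86-fold) and miR-85 (4.22-fold). Those lower were miR-2214 (6.33-fold) and miR-53* (4.39-fold). let-7 and miR-241 passed the filter through the group in which they were high, and with the filter required in each wild type 3 strands were higher (miR-48, miR-77 and miR-85) and 2 lower. The counts rested on the libraries used, with 10 higher and 23 lower without wild-type replicate 1 of the ju699 experiment and 21 and 10 without its replicate 2. Without wild-type replicate 1 of the time course they were 6 and 4, and without its replicate 2 they were 5 and 4. let-7, miR-48 and miR-241 are developmental-timing miRNAs of the let-7 family that accumulate during larval growth. miR-48 had 159 and 136 CPM in the wild type of the ju699 experiment and 21.2 and 18.0 CPM in that of the time course. The experiment and its date, handling and sequencing cannot be told apart in this comparison. None of the 10 strands called in ju699 was among these 7, but miR-35, miR-37 and miR-38 were among the 23 that were lower without wild-type replicate 1 of the ju699 experiment.

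Within the ju699 experiment most members of the timing families had log2 fold changes below 0, and none was called lower. Of the 7 members of the let-7 family only miR-795 was called, 5 were below 0, and the median was -0.40. Over all strands tested the median was -0.0042. The lowest members were miR-241 at -0.90 (adjusted p = 0.33), miR-794 at -0.69 (adjusted p = 0.44) and let-7 at -0.47 (adjusted p = 0.63). Both members of the lin-4 family were below 0, with miR-237 at -0.58 (adjusted p = 0.51). miR-48 had 140 and 65.5 CPM in ju699, a log2 fold change of -0.23 against its wild type, and miR-84 had 178 and 158 CPM in wild type and 155 and 130 CPM in the mutant (0.06). lin-4, the founding member of the pathway, had 113 and 165 CPM in wild type and 99.7 and 74.9 CPM in ju699, a log2 fold change of -0.38 (adjusted p = 0.63). In the time course its libraries were spread widely, with 291 and 87.5 CPM in wild type and 1057 and 398 CPM in tm2321. The difference between the alleles for lin-4 was -2.53 (95% interval -4.55 to -0.51, adjusted p = 0.21). miR-795 had similar levels in both experiments, with 5.36 and 3.73 CPM in wild type and 17.1 and 12.05 CPM in tm2321.

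**Figure D5:**
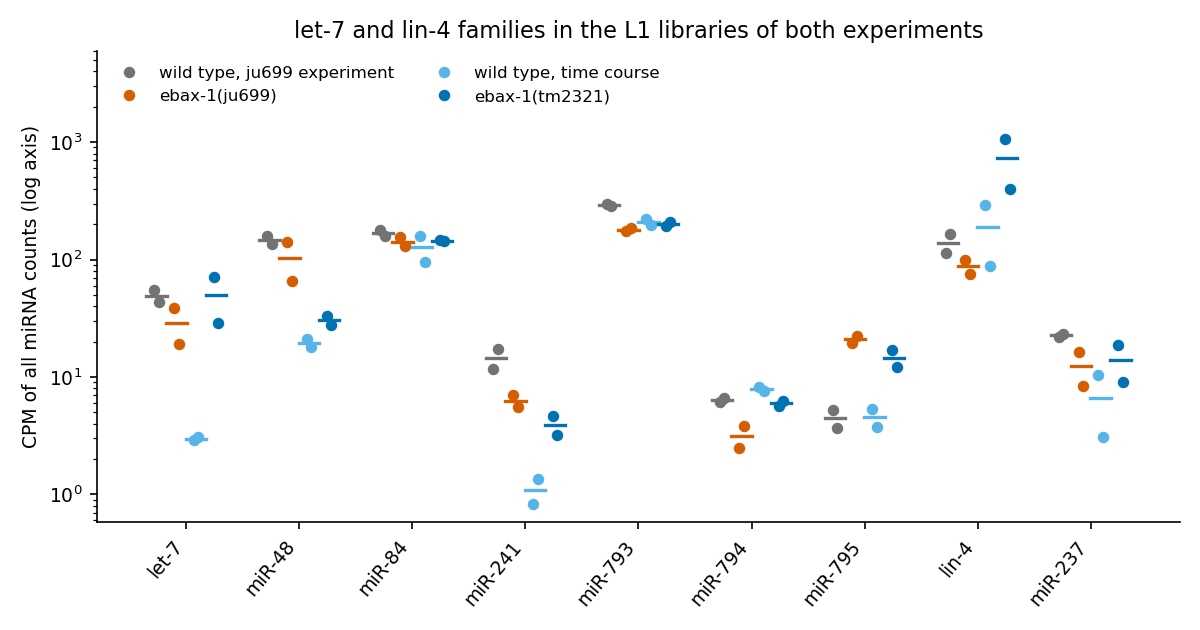
CPM (log axis) of the let-7 family and of lin-4 and miR-237 in the 8 L1 libraries. Points are libraries, bars are group means, and colours give the genotype and experiment. let-7 is near 3 CPM in the wild type of the time course and between 19.1 and 70.4 CPM in the other 6 libraries, while miR-795 is higher in both mutants than in both wild types.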

How the data were processed

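The deposited values are read counts per miRNA strand. The authors trimmed reads with cutadapt and fastx_trimmer, filtered them for base quality, matched the start of each read to a curated miRNA dictionary and removed spike-in counts, so absolute scaling was not possible here. Versions are not given in the sources used here. The table of piRNA counts was not used.

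CPM were taken over all miRNA counts of a library. Strands with a mean wild-type CPM + 1 of at least 5 were tested by quasi-likelihood in edgeR 4.0.16 under R 4.3.3 after TMM scaling, ratios with limma 3.58.1 and a pseudocount of 1 CPM, and alternatives with DESeq2 1.42.0. All tests are two-sided. The scripts were tested on simulated counts. Python 3.11.15 and matplotlib 3.10.9 made tables and figures. Replicates were not copies of each other, and the labels do not say that they are separate cultures, so p-values measure the spread between these libraries.

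Members, lists and named strands (called strands, whole families, up to 4 per list, passenger strands, the most abundant, the lowest p, and the highest below the filter) were chosen with earlier results of these data known. miR-77, miR-85, miR-2214, miR-53*, miR-1817, miR-1829b and miR-1829b* were named after their values were seen. Hairpin positions are from Ensembl 115 (WBcel235), and 298 of 303 strands matched a hairpin.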

Additional observations from a re-analysis of the deposited data

Results flagged for a closer look

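The change of let-7 differed between the experiments by a test of the difference itself, with a log2 difference of -4.72 (ju699 minus tm2321, adjusted p = 0.046). let-7 was below the filter in the wild type of the time course and entered the test through the wild type of the ju699 experiment, where it was high. The adjusted p was 0.17 without ju699 replicate 2, 0.13 and 0.20 without wild-type replicates 1 and 2 of the time course, 0.0504 with scaling by totals and 0.083 with the newer fit of edgeR, and it ranged from 4.45e-09 (DESeq2) to 0.20 over all alternatives that tested it. It was 0.72-fold in ju699 larvae against their own wild type, while in the time course let-7 stood at 2.89 and 3.05 CPM in wild type and 70.4 and 28.9 CPM in tm2321. In the wild-type libraries of the ju699 experiment it was 15.8-fold higher than in those of the time course, so the allele and the controls cannot be told apart in this difference.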

How the results depend on the processing

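With 2 libraries per genotype the number of calls moved with the settings, while the direction of every called strand did not. Against 10 strands higher, DESeq2 called 16, and scaling by totals and a filter of 50 called 2 each (miR-42 and miR-65 in both). Leaving out 1 library gave 13 to 15 higher, 9 of the 10 kept without wild-type replicate 1 (miR-795 fell below the filter) and all 10 otherwise; an arm left with 1 library was assumed to vary like the other. Against 0 lower, DESeq2, the fit of all 8 L1 libraries and a threshold of 0.05 gave 2, and no filter, the replicate block and each library left out gave 1 (miR-70). A threshold of 0.05 added miR-36, miR-41-3p, miR-44 and miR-1829b to the strands higher.

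No label ties same-numbered libraries to a shared culture or day. Their deviations correlated at 0.245 over 215 strands, which with 2 pairs was not taken as pairing. The replicate block gave 12 strands higher and 1 lower in ju699, 8 higher and 10 lower between wild types, 6 ratios higher and 1 strand differing between alleles.

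The difference between alleles, 1 strand, became 10 with DESeq2, 3 with no filter, 0 with scaling by totals, a filter of 50, a threshold of 0.01 or the newer quasi-likelihood fit of edgeR (added after the data were seen), 0 with the filter required in each wild type (also added then), and 0 to 6 with 1 library left out. Between wild types, 5 higher and 2 lower became 8 and 9 with DESeq2, 1 and 0 with a filter of 50, 3 and 2 with the filter in each wild type, 8 and 6 at 0.05, and 5 to 21 and 4 to 23 with 1 library left out. Ratios, 12 higher, became 1 with a filter of 50 and 6 to 9 with 1 library left out, and a pseudocount of 5 CPM gave 8 higher (without miR-43, miR-64, miR-235 and miR-244) and 1 lower (miR-70). The cause of these shifts was not tested. Of 926 values of single named strands under 12 alternatives, 867 stayed on the same side of the threshold, 45 passed in addition and 14 no longer passed. The sign changed in 62 values of 34 uncalled strands, 23 of them with scaling by totals, and in 0 values of called strands.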
